A study of Mus musculus with 7 samples.

Results

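Genes of the spermatogonial stem cell state and its response to GDNF (glial cell line-derived neurotrophic factor) were followed in synchronized testes, with and without MEIOC. The 9 genes, and the gene lists set beside them, were chosen by name for known roles, with earlier results of these data known. The 9 genes are part of the 21928 protein-coding genes measured. They are the receptor genes *Gfra1* and *Ret*, the GDNF-response transcription factor genes *Etv5*, *Bcl6b*, *Egr4* and *Lhx1*, and the stem cell regulator genes *Id4*, *Eomes* and *Nanos2*. All 9 were found in the files by gene identifier, and 6 of them passed the filter on low values used by the study, which asks for 1 TPM (transcripts scaled to a fixed total, a level per transcript length) or more in 3 or more of the 7 samples.

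The study asked how MEIOC, a germ cell protein that works in a complex with YTHDC2 and RBM46, both of which bind RNA, changes the transcriptome of mouse spermatogenic cells around meiotic entry. Total RNA was sequenced from the testes of 7 pups, 4 wild-type and 3 *Meioc*-null, with 1 library per pup, each made from 1.5 testes. Both groups were on the C57BL/6N strain, and the null pups carried a *Meioc*-null allele backcrossed to that strain. All pups had received WIN 18,446, which blocks retinoic acid synthesis, at 0.1 mg per gram of body weight daily from postnatal day 2 to 8, and retinoic acid at 0.0125 mg per gram on day 9, so that their differentiating germ cells advanced together; testes were collected 6.75 days later, when they were enriched for preleptotene spermatocytes. Whole testes were used, so stem cells were a minor part of the tissue and somatic cells were included.

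Libraries held 12537852 to 20552702 estimated counts, and 3 counts, taken as the floor, corresponded to 0.151 to 0.237 CPM (counts scaled to a library of standard size, after TMM scaling for composition). *Meioc* itself (chromosome 11 of GRCm38, 102663716 to 102682237) was at 468 to 720 CPM in wild type and at 300 to 413 CPM in the null. This is the order the labels give (log2 fold change 0.76, standard error 0.159, edgeR adjusted p = 0.0207). Each value is a sum for the gene and does not tell where in it the reads fell. Which part of the gene the allele lacks is not given in the sources used here. Across the 13630 genes tested with edgeR's quasi-likelihood test, 1059 were called higher and 454 lower in wild type at a Benjamini-Hochberg adjusted p under 0.05. This balance depends on the scaling, with 810 higher and 904 lower by library size alone and 440 higher and 2082 lower on log2(TPM + 1). *Meioc*-null replicate 2 had the highest CPM of all 7 libraries at 3348 of the 13630 tested genes (24.6%), against 1488 to 2050 genes for each other library. It stood apart in the genes described here too, so results are also given without it.

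Spermatogonial stem cells renew in response to GDNF, which Sertoli and peritubular cells secrete. GDNF binds GFRA1, a receptor anchored in the membrane, and the pair activates the receptor tyrosine kinase RET, which signals through SRC family kinases, PI3K and AKT, and RAS. In cultured stem cells this signal maintains transcripts of several transcription factors, among them *Etv5*, *Bcl6b*, *Egr4* and *Lhx1*. *Id4*, *Eomes* and *Nanos2* mark or sustain the most stem-like undifferentiated spermatogonia.

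None of the 6 tested genes was called in either direction by edgeR's quasi-likelihood test, adjusted over all 13630 genes, against 11.1% of all tested genes called in either direction, 7.77% called higher and 3.33% called lower in wild type. *Ret*, *Etv5*, *Bcl6b* and *Egr4* nevertheless had unadjusted p-values between 0.00578 and 0.015 in edgeR, all with lower values in wild type; 12.9% of all tested genes had an unadjusted p under 0.05 in that direction. The sign of the log2 fold change was negative for 5 of the 6, and for 50.9% of all tested genes. *Gfra1* and *Id4* had unadjusted p-values of 0.453 and 0.168. DESeq2, which the study used, called on the same genes 3 of the 6 lower in wild type (*Ret*, *Etv5* and *Egr4*). It called 6.42% of all tested genes in that direction. On log2(TPM + 1), limma called *Ret* and *Egr4* lower, where it called 15.3% of all tested genes lower. In bulk tissue, fewer cells of a type and less RNA per cell cannot be told apart. The summed level of all 9 genes was 71.0 to 88.1 CPM in the wild-type libraries and 91.4 to 131 CPM in the null libraries; the lowest null library was *Meioc*-null replicate 1, close to wild-type replicate 1.

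**Figure D1:**
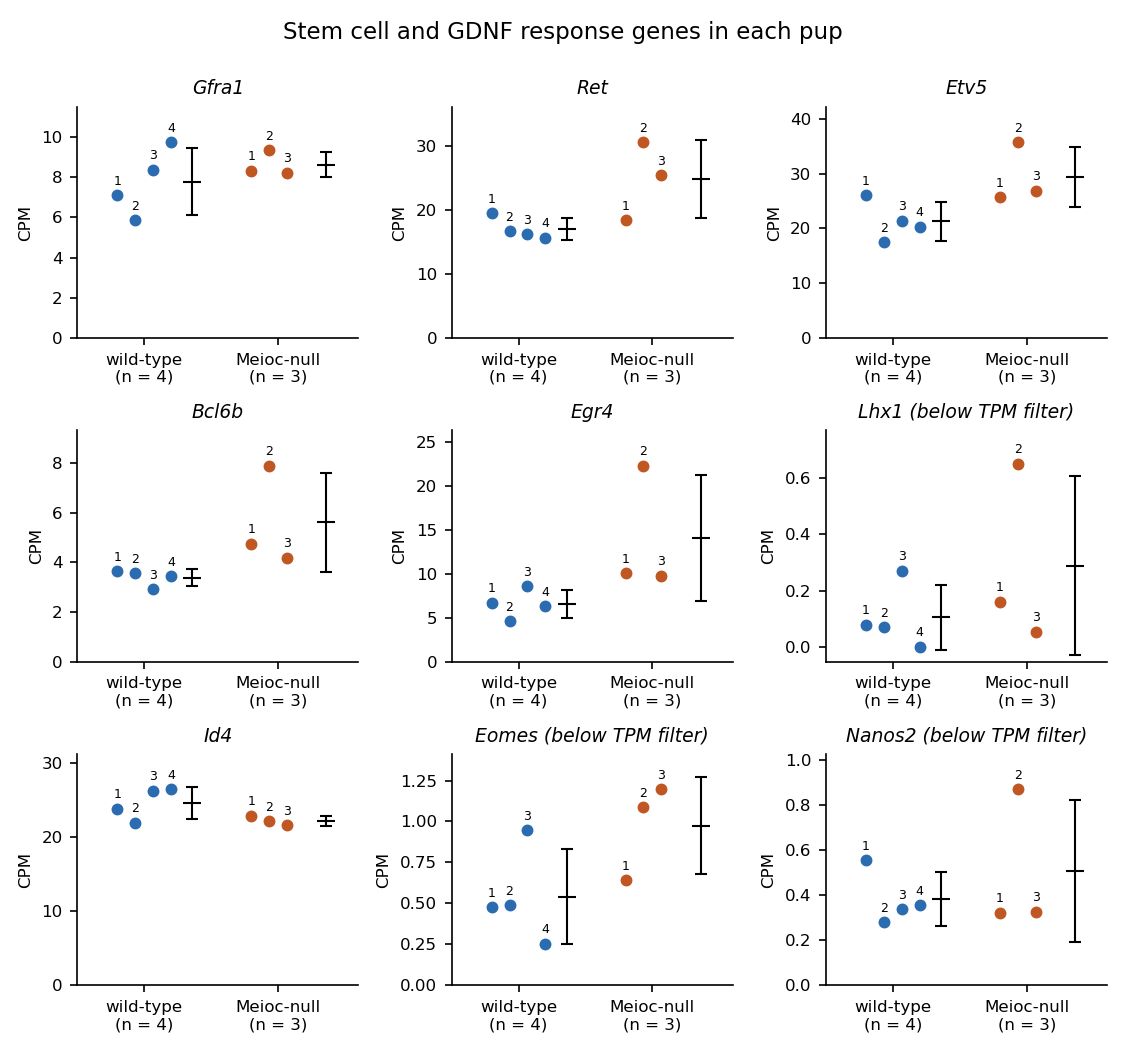
CPM of the 9 genes in each pup, labelled by replicate number, with the mean and SD of each group beside the points (wild-type in blue, n = 4; *Meioc*-null in orange, n = 3). The groups are apart for *Bcl6b* and *Egr4* and overlap for the other 7 genes, and *Meioc*-null replicate 2 is the highest library for 6 of the 9.

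Levels between genes were compared per length, in TPM. In wild type the order was *Id4* at 11.1 ± 1.12 TPM (SD, n = 4), *Etv5* at 6.38 ± 1.46, *Ret* at 4.03 ± 0.645, *Egr4* at 2.57 ± 0.715, *Gfra1* at 2.37 ± 0.504, *Bcl6b* at 1.17 ± 0.160, *Nanos2* at 0.308 ± 0.118, *Eomes* at 0.178 ± 0.0930 and *Lhx1* at 0.0475 ± 0.0655. The ranges over the wild-type pups of *Egr4* and *Gfra1* overlapped, as did those of *Nanos2* and *Eomes* and those of *Eomes* and *Lhx1*; the other neighbours did not overlap. The null libraries had the same order of mean TPM. There the ranges of *Id4*, *Etv5*, *Ret* and *Egr4* overlapped in turn, and *Egr4* had a mean of 6.60 ± 3.95 TPM (SD, n = 3), from 4.14 to 11.2.

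Of the 2 receptor genes, *Gfra1* differed by less than the spread between pups, and *Ret* was at lower values in wild type without passing the threshold. *Gfra1* (chromosome 19 of GRCm38, 58235604 to 58455909, reverse strand) encodes the subunit that binds GDNF. It was at 7.11, 5.87, 8.38 and 9.74 CPM in wild-type replicates 1 to 4 and at 8.33, 9.35 and 8.21 CPM in *Meioc*-null replicates 1 to 3. The 3 null values lay within the wild-type range. The log2 fold change of wild type over null was -0.14 (standard error 0.181, 95% interval -0.547 to 0.264, edgeR adjusted p = 0.629).

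*Ret* (chromosome 6, 118151745 to 118197718, reverse strand) encodes the signalling kinase of the receptor. It was at 19.5, 16.7, 16.2 and 15.7 CPM in wild-type replicates 1 to 4 and at 18.4, 30.6 and 25.5 CPM in *Meioc*-null replicates 1 to 3. *Meioc*-null replicates 2 and 3 were above every wild-type library, while *Meioc*-null replicate 1 was below wild-type replicate 1, so the groups overlapped. The log2 fold change was -0.54 (standard error 0.165, 95% interval -0.911 to -0.173, edgeR adjusted p = 0.0624). Without *Meioc*-null replicate 2 it was -0.37 (edgeR adjusted p = 0.185), and without *Meioc*-null replicate 1 it was -0.72 and *Ret* was called (edgeR adjusted p = 0.0156). The first of these fits called 0.418% of all tested genes lower in wild type, and the second called 6.14% lower.

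The annotation used by the study lists 4 transcripts of *Gfra1* and 2 of *Ret*, between which kallisto divides the reads by estimation. Nearly all *Gfra1* reads were assigned to Gfra1-201 and Gfra1-203. Gfra1-203 held 54.7% to 70.1% of the TPM of the gene in the wild-type libraries and 28.3% to 76.8% in the null libraries, where *Meioc*-null replicate 1 was the low value. In that library Gfra1-201 was at 1.99 TPM, against 0.587 to 0.966 TPM in the wild-type libraries and 0.615 and 0.748 TPM in the other null libraries. Ret-202 held most of the *Ret* level in every library, 80.4% to 90.9% in wild type and 76.2% to 88.9% in the null. Its level was 3.44 ± 0.496 TPM (SD, n = 4) in wild type and 5.64 ± 1.55 TPM (SD, n = 3) in the null.

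**Figure D2:**
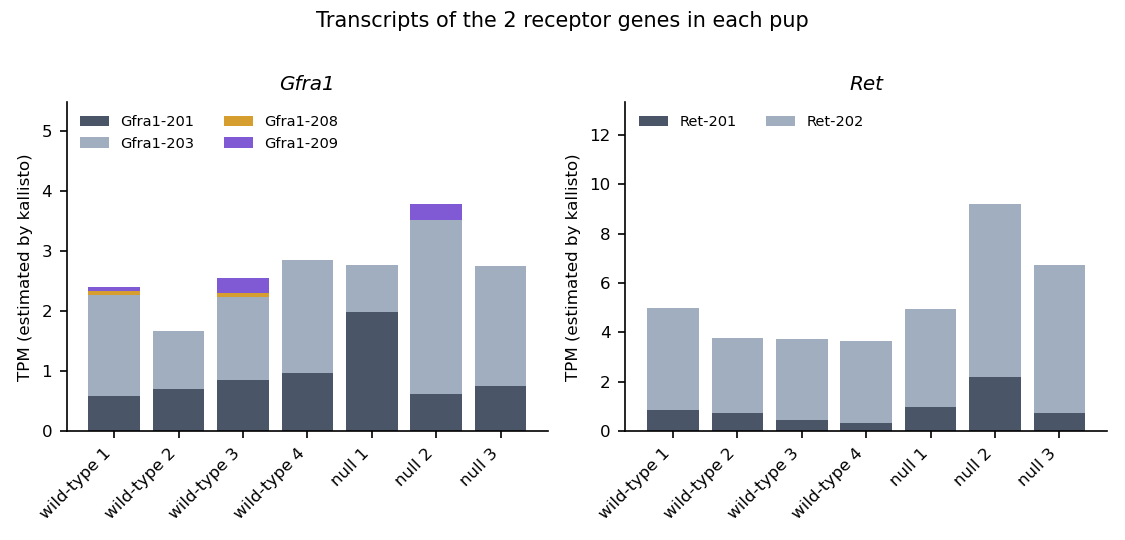
Stacked bars give the TPM that kallisto assigned to each transcript of *Gfra1* (left) and *Ret* (right) in each library. The total of *Gfra1* is 1.67 to 2.85 TPM in wild type and 2.76 to 3.78 TPM in the null, with Gfra1-201 largest in null replicate 1; Ret-202 makes up most of each *Ret* bar.

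Of the GDNF-response transcription factor genes, *Egr4* and *Bcl6b* had every wild-type library below every null library, *Etv5* overlapped in CPM but not in TPM, and *Lhx1* was at the floor. In CPM, no overlap was seen for 26.2% of all tested genes, and for 10.8% with lower values in wild type. These shares do not cover TPM, and on log2(TPM + 1) the median of all tested genes was itself -0.23. *Egr4* (chromosome 6, 85511121 to 85513589, reverse strand), a zinc finger factor of the early growth response family, had the widest difference. It was at 6.72, 4.61, 8.58 and 6.31 CPM in wild-type replicates 1 to 4 and at 10.1, 22.3 and 9.79 CPM in *Meioc*-null replicates 1 to 3. *Meioc*-null replicates 1 and 3 were close to each other and just above the wild-type range, and *Meioc*-null replicate 2 was far above both. The log2 fold change was -1.09 (standard error 0.309, 95% interval -1.78 to -0.398, edgeR adjusted p = 0.0512). The gene was called under 10 of the 17 other settings, at log2 fold changes over all 17 from -1.66 to -0.60. The value nearest to 0 was the one without *Meioc*-null replicate 2 (edgeR adjusted p = 0.146). That fit called 0.418% of all tested genes lower in wild type.

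*Bcl6b* (chromosome 11, 70224128 to 70229798, reverse strand), a transcriptional repressor related to BCL6, was at 3.64, 3.56, 2.91 and 3.43 CPM in wild-type replicates 1 to 4 and at 4.75, 7.90 and 4.19 CPM in *Meioc*-null replicates 1 to 3. The wild-type libraries were close together, and the null libraries again differed mainly by replicate 2. The log2 fold change was -0.72 (standard error 0.238, 95% interval -1.25 to -0.185, edgeR adjusted p = 0.0783), and it was -0.40 without *Meioc*-null replicate 2 (edgeR adjusted p = 0.234). *Bcl6b* is also expressed in endothelial cells, whose 8 marker genes summed to 92.7 to 110 CPM in wild type and to 91.9 to 110 CPM in the null. Of these markers 7 were tested, 4 with a positive and 3 with a negative log2 fold change. The part of endothelial cells in the *Bcl6b* values was not tested.

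*Etv5* (chromosome 16, 22381309 to 22439719, reverse strand), an ETS family factor needed for stem cell renewal and also made by Sertoli cells, was at 26.1, 17.5, 21.4 and 20.3 CPM in wild-type replicates 1 to 4. In *Meioc*-null replicates 1 to 3 it was at 25.7, 35.7 and 26.9 CPM. Wild-type replicate 1 lay within the range of the null libraries and was the only library of its group to do so. The log2 fold change was -0.47 (standard error 0.158, 95% interval -0.818 to -0.112, edgeR adjusted p = 0.0835). Without wild-type replicate 1 it was -0.57 and *Etv5* was called (edgeR adjusted p = 0.0328), and without *Meioc*-null replicate 2 it was -0.31 (edgeR adjusted p = 0.250). Those fits called 5.37% and 0.418% of all tested genes lower in wild type. The 10 Sertoli cell markers, with *Sox9*, *Wt1* and *Clu* among them, summed to 4950 to 5117 CPM in wild type and to 5075 to 5819 CPM in the null. *Clu* alone was at 3424 to 3673 CPM in wild type and at 3649 to 4394 CPM in the null. The part of Sertoli cells in the *Etv5* values was not tested.

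*Lhx1* (chromosome 11, 84518284 to 84525535, reverse strand), a LIM homeobox gene, had 1, 1, 4 and 0 estimated counts in wild-type replicates 1 to 4 and 3, 9 and 1 in *Meioc*-null replicates 1 to 3. Only 2 of the 7 libraries were above the floor of 3 counts, so the depth does not allow a comparison (two-sided exact permutation p = 0.457, where the smallest p that 4 against 3 libraries allow is 0.0571).

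Promoter sequence was at hand for 7 of the 9 genes from RefSeq on GRCm38.p6, of which *Egr4* and *Etv5* are shown, a choice made after their values were seen, because their levels followed each other most closely among the 9 genes (Pearson r of log2(CPM + 1) = 0.909 over the 7 libraries, given as a description; the 7 points share library composition). The 250 bases before the start are given 5′ to 3′ on the strand of the gene. For *Etv5* the table holds 2 starts, and the window shown is the one with a match; the other, chr16:22438369-22438618, holds 0 matches to either core. Capitals mark a match to the core recognized by ETS factors such as ETV5 (CGGAAG) or to a core of the kind recognized by EGR factors (GCGGGGG), both searched on both strands.
Egr4, chr6:85513590-85513839, reverse strand: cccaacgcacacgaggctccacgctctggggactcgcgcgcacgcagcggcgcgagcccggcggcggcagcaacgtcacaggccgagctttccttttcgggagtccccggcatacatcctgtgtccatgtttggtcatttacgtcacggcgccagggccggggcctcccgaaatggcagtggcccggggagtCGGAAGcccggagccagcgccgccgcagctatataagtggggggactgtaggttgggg
Etv5, chr16:22439571-22439820, reverse strand: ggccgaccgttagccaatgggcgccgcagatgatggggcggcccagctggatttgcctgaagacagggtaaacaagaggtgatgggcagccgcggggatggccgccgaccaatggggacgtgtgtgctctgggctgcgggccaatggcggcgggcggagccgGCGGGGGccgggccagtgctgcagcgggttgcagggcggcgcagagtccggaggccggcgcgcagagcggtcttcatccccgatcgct
The ETS core starts 58 bases before the start of *Egr4*, the only one of the 8 promoters of these genes that holds it, whereas 13.6% of all 32851 promoter windows of this length do. The EGR-type core starts 88 bases before this start of *Etv5* and is also in the *Id4* promoter, in the reverse direction; 9.63% of all windows hold it. Neither window shown holds both cores. A match is a description of the letters and does not show that a factor binds there.

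Of the stem cell regulator genes, *Id4* passed the filter on low values and *Eomes* and *Nanos2* were below it. *Id4* (chromosome 13, 48261228 to 48266026, forward strand), an inhibitor of basic helix-loop-helix factors, was the most abundant of the 9 genes per length. It was at 23.9, 21.9, 26.3 and 26.5 CPM in wild-type replicates 1 to 4 and at 22.9, 22.2 and 21.6 CPM in *Meioc*-null replicates 1 to 3. The values overlapped and were the only ones of the 6 tested genes with a positive log2 fold change, 0.15 (standard error 0.101, 95% interval -0.0756 to 0.376, edgeR adjusted p = 0.343). This sign depends on the scaling: on log2(TPM + 1), where the median of all tested genes was itself -0.23, it was -0.10.

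*Eomes* (chromosome 9, 118478212 to 118486132, forward strand), a T-box factor of a subset of stem cells, was below the TPM filter. It had 6, 7, 14 and 5 estimated counts in wild-type replicates 1 to 4 and 12, 15 and 22 in *Meioc*-null replicates 1 to 3, which is 0.540 ± 0.291 CPM (SD, n = 4) against 0.975 ± 0.294 CPM (SD, n = 3). Wild-type replicate 3 lay among the null libraries, and the two-sided exact permutation p was 0.114 (0.343 adjusted over the 3 genes below the filter).

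*Nanos2* (chromosome 7, 18987400 to 18988962, forward strand), which encodes an RNA-binding protein that keeps stem cells undifferentiated, had 7, 4, 5 and 7 estimated counts in wild type and 6, 12 and 6 in the null. Outside *Meioc*-null replicate 2, the libraries were at 0.280 to 0.553 CPM with no order between the groups (two-sided exact permutation p = 0.629, also 0.629 adjusted over the 3 genes). The log2 ratio of the means, wild type over null, was -0.41, and it turned to 0.24 when that library was left out.

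**Figure D3:**
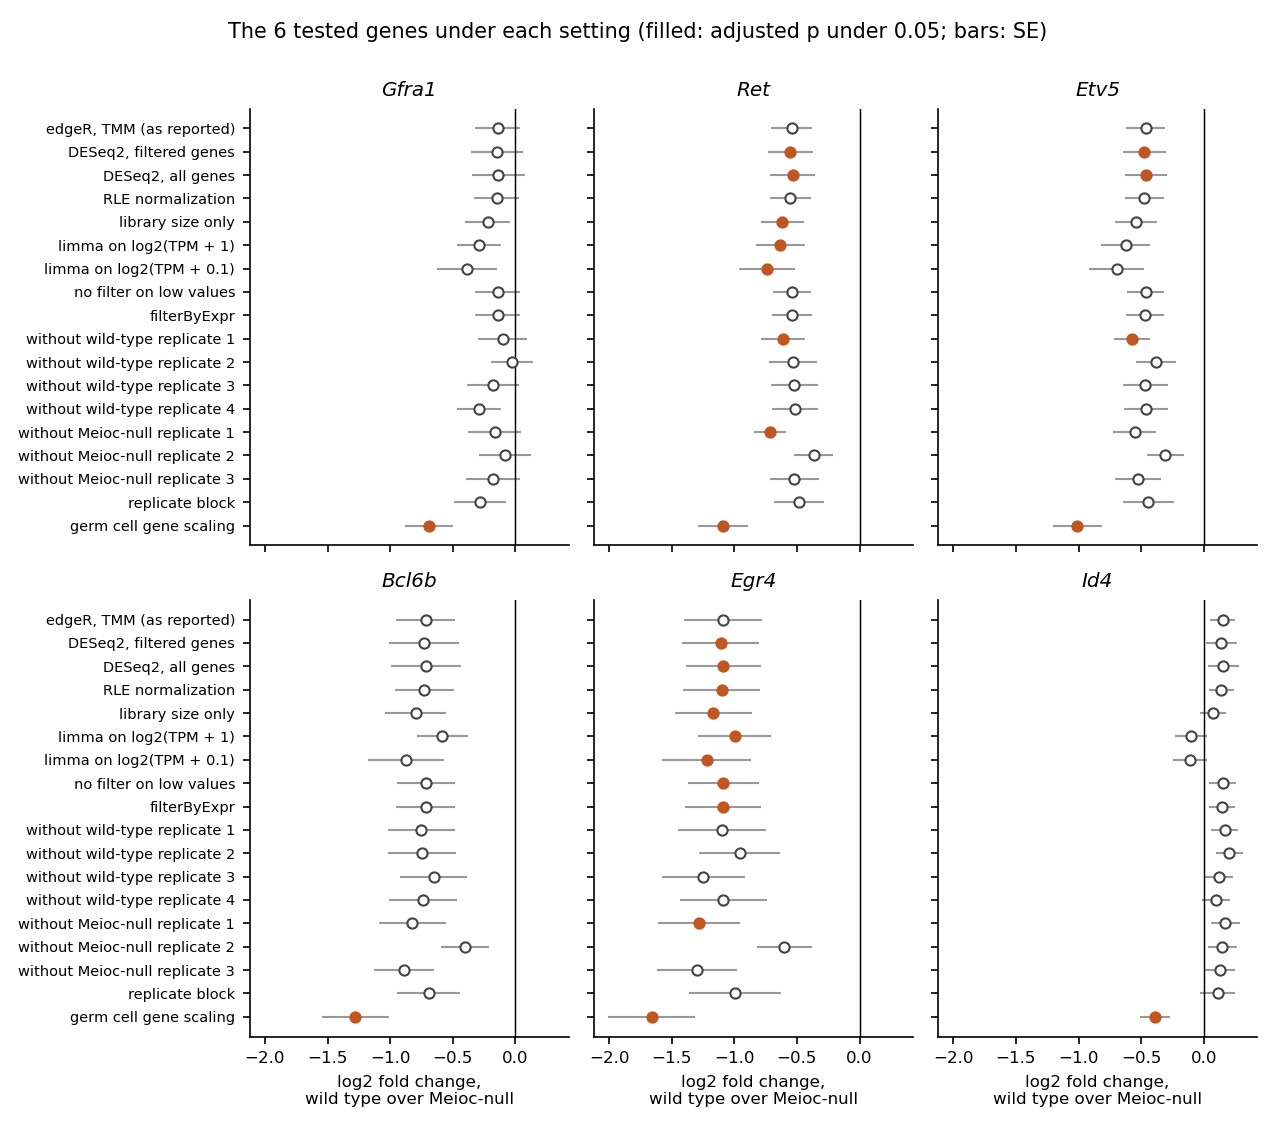
Log2 fold change of wild type over *Meioc*-null, with its standard error, of the 6 tested genes (panels) under the reported fit and 17 other settings (rows); filled points passed an adjusted p under 0.05. *Ret*, *Etv5*, *Bcl6b* and *Egr4* stay below 0 throughout and lie nearest to 0 without *Meioc*-null replicate 2, *Gfra1* runs from -0.69 with germ cell gene scaling to -0.0289 without wild-type replicate 2, and *Id4* is on both sides of 0.

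The ligand and its other receptors were measured at low levels. *Gdnf* (chromosome 15, 7810846 to 7837575, forward strand) was at 2.61, 2.10, 1.01 and 2.47 CPM in wild-type replicates 1 to 4 and at 3.31, 3.41 and 3.26 CPM in *Meioc*-null replicates 1 to 3. Every wild-type library was below every null library, as was so for 10.8% of all tested genes. *Gdnf* was not called (log2 fold change -0.69, standard error 0.287, edgeR adjusted p = 0.137). Of the 10 GDNF family ligand and other receptor genes, 5 passed the TPM filter. Of these 5, edgeR called 0 higher and 1 lower in wild type, against 7.77% and 3.33% of all tested genes. Their median log2 fold change was -0.58, against -0.0065 over all tested genes. The summed level of the 10 genes was 30.4 to 38.2 CPM in wild type and 41.1 to 54.2 CPM in the null. The called gene was *Sdc3*, which encodes syndecan 3, a heparan sulfate proteoglycan that binds GDNF. *Sdc3* was at 16.0, 20.1, 15.9 and 16.4 CPM in wild type and at 24.6, 34.9 and 23.2 CPM in the null (log2 fold change -0.68, standard error 0.157, edgeR adjusted p = 0.0257). With 1 library left out at a time it was called in 2 of 7 fits, with edgeR adjusted p from 0.0275 to 0.0762.

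The kinases and adaptors below RET were abundant, and edgeR called none of them. Of 23 such genes, all tested, 0 were called in either direction by edgeR, 17 had a negative log2 fold change, and the median was -0.078. At an unadjusted p under 0.05, 1 was higher and 2 were lower in wild type. DESeq2 called 1 lower, and limma on log2(TPM + 1) called 7 lower. On that scale limma called 15.3% of all tested genes lower, and their median was itself negative. The summed level of the 23 genes was 2135 to 2199 CPM in wild type and 2243 to 2278 CPM in the null, which do not overlap. Taken singly, 5 of the 23 had no overlap in CPM in either direction, against 26.2% of all tested genes. The value farthest from 0 was that of *Grb2*, an adaptor that links receptors to RAS, at -0.28 (standard error 0.117, edgeR adjusted p = 0.141). Of 11 other genes that respond to GDNF or FGF signals, such as *Spry1* and *Dusp6*, 8 were tested and 0 called by edgeR, with a median of -0.29; 1 was higher and 1 lower at an unadjusted p under 0.05, DESeq2 called 1 lower and limma 2 lower. *Egr2*, a relative of *Egr4*, had the value farthest from 0 in that list, at -0.60 (standard error 0.335, edgeR adjusted p = 0.259), and rested on *Meioc*-null replicate 3, at 5.71 CPM against 2.02 to 2.77 CPM in the other 6 libraries.

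Immediate early genes, 9 in the list, which many stimuli including tissue handling raise within minutes, were measured because *Egr4* belongs to a family of such genes. Their summed level was 71.6 to 87.9 CPM in wild type; the null libraries were at 82.9, 116 and 194 CPM, in the order of *Meioc*-null replicates 1 to 3. Of the 9 genes, 8 were tested, with a median log2 fold change of -0.69, against -0.0065 over all tested genes. EdgeR called 1 lower and 0 higher in wild type, against 3.33% and 7.77% of all tested genes. At an unadjusted p under 0.05, 5 were lower and 0 higher, against 12.9% of all tested genes lower. DESeq2 called 1 lower and limma on log2(TPM + 1) called 2 lower. The gene called by edgeR was *Jun* (log2 fold change -0.51, standard error 0.131, edgeR adjusted p = 0.0376). It was called in 2 of the 7 fits that left out a library. The highest sum, in replicate 3, was carried by *Nr4a1* and *Junb*, at 63.3 and 40.5 CPM there against 8.41 and 12.6 CPM in replicate 2. *Egr1*, a relative of *Egr4*, was at 8.53 to 12.8 CPM in wild type and at 7.10, 25.4 and 20.8 CPM in *Meioc*-null replicates 1 to 3, and *Jun* was at 35.2, 46.4 and 44.6 CPM in those libraries. Both were highest in *Meioc*-null replicate 2, as were *Dusp1*, *Egr4* and 24.6% of all tested genes, with *Jun* nearly level in replicate 3. *Nr4a1*, *Junb*, *Atf3* and *Fosb* were instead highest in *Meioc*-null replicate 3, and *Fos* and *Ier2* in wild-type libraries. The genes of this list other than *Jun* were named after their values were seen. Their part in the *Egr4* values was not tested.

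Of the other genes of undifferentiated spermatogonia, several were called lower in wild type. Of 15 listed, 13 were tested, and edgeR called 5 lower and 1 higher in wild type, against 3.33% and 7.77% of all tested genes. The median log2 fold change was -0.67, against -0.0065 over all tested genes. *Zbtb16*, a repressor that maintains undifferentiated spermatogonia, was at 60.5 to 68.7 CPM in wild type and at 84.9, 161 and 105 CPM in *Meioc*-null replicates 1 to 3 (log2 fold change -0.86, standard error 0.181, edgeR adjusted p = 0.0213). *Lin28a*, an RNA-binding protein gene, was at 60.1 to 74.3 CPM in wild type and at 99.2, 128 and 104 CPM in the null (log2 fold change -0.75, standard error 0.113, edgeR adjusted p = 0.00979), and it was called in each of the 7 fits that left out a library. *Upp1* (-0.71), *Nanos3* (-0.67) and *Itga6* (-0.47), an integrin subunit gene also used by somatic cells, were the other 3 called lower. *Taf4b*, which encodes a subunit of the general transcription machinery, was called in the other direction, higher in wild type (log2 fold change 0.58, standard error 0.115, edgeR adjusted p = 0.0181). *Meioc*-null replicate 2 was the highest library for 12 of the 15 genes, as it was for 6 of the 9 stem cell genes, against 24.6% of all tested genes. Without it, 2 of the 15 were called lower and 0 higher, in a fit that called 0.418% of all tested genes lower. Calls were fewer with most libraries left out, 131 to 478 over all genes in the fits that left out *Meioc*-null replicate 2 or 3, or else replicate 2, 3 or 4 of wild type; of the 7 fits that left out a library, *Zbtb16* was called in 3, *Itga6* in 4, and *Upp1*, *Nanos3* and *Taf4b* in 2 each.

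**Figure D4:**
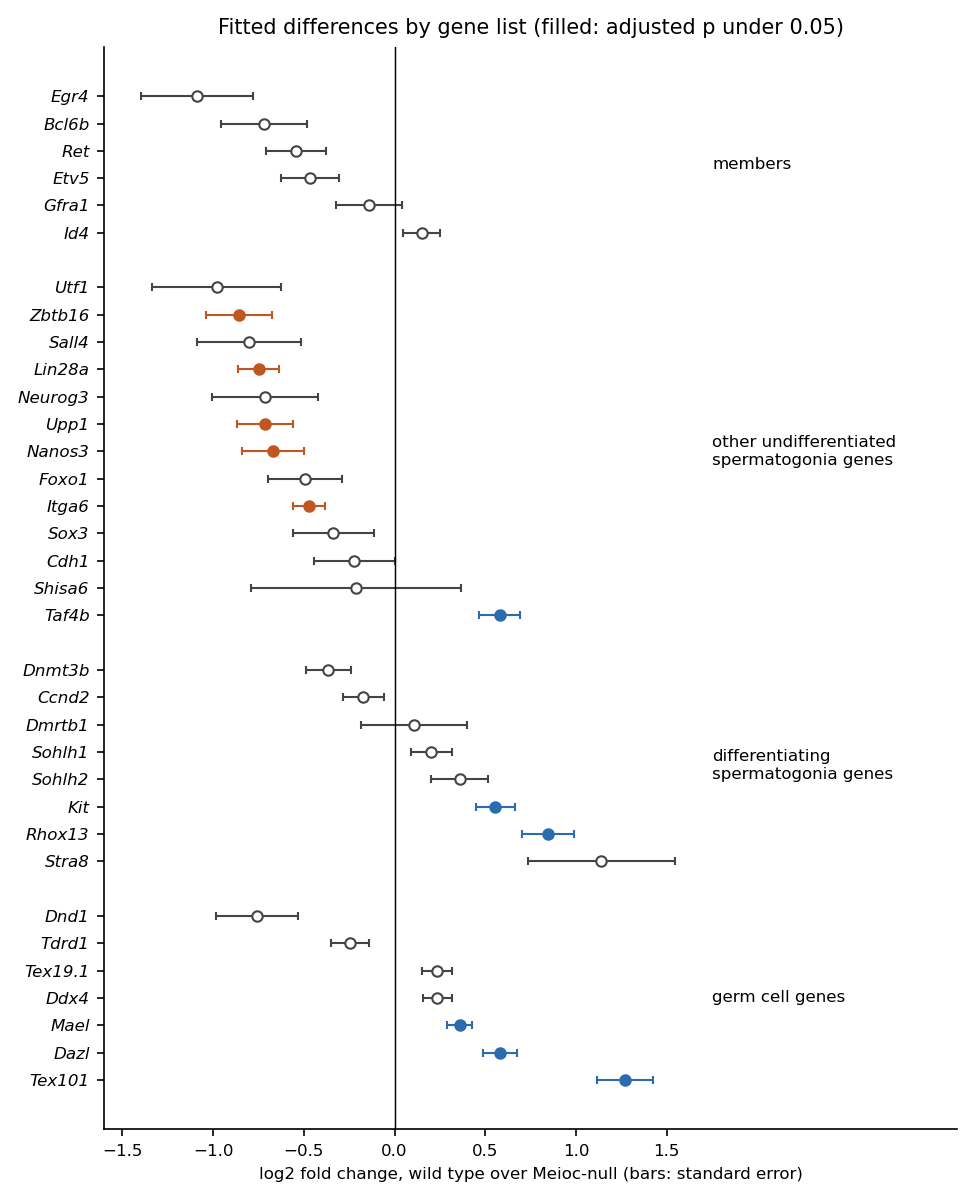
Log2 fold change of wild type over *Meioc*-null, with its standard error, for the tested genes among the 9 (members) and 3 other germ cell lists; filled points passed an adjusted p under 0.05, in orange where lower and in blue where higher in wild type. The called genes lie to the left among undifferentiated spermatogonia genes, apart from *Taf4b*, and to the right in the other lists.

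Genes of differentiating spermatogonia and of germ cells in general had values in both directions. Of 8 genes of differentiating spermatogonia, edgeR called 2 higher and 0 lower in wild type, against 7.77% and 3.33% of all tested genes. At an unadjusted p under 0.05 the numbers were 4 and 1. They were 2 and 1 by DESeq2, and 1 and 2 by limma on log2(TPM + 1). The median log2 fold change was 0.28. *Kit*, the stem cell factor receptor gene switched on at differentiation, was at 186 to 248 CPM in wild type and at 146 to 163 CPM in the null (log2 fold change 0.55, standard error 0.107, edgeR adjusted p = 0.0175), and it was not called on log2(TPM + 1) (0.30, limma adjusted p = 0.0884). *Rhox13*, a homeobox gene, was the other, at 0.85 (standard error 0.142, edgeR adjusted p = 0.0125). Of the 7 matched genes of germ cells in general, edgeR called 3 higher and 0 lower in wild type, against the same 7.77% and 3.33%. The 3 were *Tex101*, *Dazl* and *Mael*, at log2 fold changes of 1.27, 0.58 and 0.36. In that list 5 were higher and 2 lower at an unadjusted p under 0.05, DESeq2 called 3 higher and 1 lower, and limma on log2(TPM + 1) called 2 in each direction. With 1 library left out, *Tex101* and *Dazl* were called in all 7 fits, *Rhox13* in 6, *Mael* in 4 and *Kit* in 3. The summed level of these 7 genes was 2034 to 2263 CPM in wild type and 1373 to 1534 CPM in the null. When libraries were instead scaled to that sum, the median of all tested genes moved to -0.55, and all 6 tested stem cell genes were called lower in wild type, as were 74.7% of all tested genes.

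Somatic marker lists overlapped between the groups in their summed level. Markers of Leydig cells summed to 281 to 567 CPM in wild type and 336 to 647 CPM in the null, those of peritubular myoid cells to 535 to 614 and 509 to 593 CPM, those of macrophages to 263 to 282 and 236 to 288 CPM, and those of Schwann and neural crest cells, which also use RET, to 34.96 to 48.5 and 38.3 to 40.9 CPM. Over all tested genes, edgeR called 3.33% lower and 7.77% higher in wild type. Of the genes in the 6 somatic lists, *Gata4* (Sertoli cells, 10 tested, log2 fold change -0.33, standard error 0.0756) and *Des* (peritubular myoid cells, 5 tested, -0.37, standard error 0.105) were called lower in wild type, at edgeR adjusted p of 0.0253 and 0.0493. *Egfl7* (endothelial cells) was called higher in wild type, at 0.55 (standard error 0.155, edgeR adjusted p = 0.0491). *Des* and *Egfl7* were called in 0 of the 7 fits that left out a library and *Gata4* in 2. In the Leydig cell (7 tested) and macrophage (6 tested) lists none was called by edgeR. DESeq2 called 2 Leydig cell genes lower in wild type, against 6.42% of all tested genes. At an unadjusted p under 0.05, 2 Leydig cell genes and 1 macrophage gene were lower and 0 were higher, against 12.9% of all tested genes lower. The values farthest from 0 in these lists were those of *Star* (-1.10, standard error 0.754) and *Csf1r* (-0.24, standard error 0.0925). On log2(TPM + 1), where limma called 15.3% of all tested genes lower, it called 4 Sertoli cell, 3 Leydig cell and 2 peritubular myoid genes lower. It also called 1 endothelial and 1 macrophage gene lower, and 0 somatic list genes higher.

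**Figure D5:**
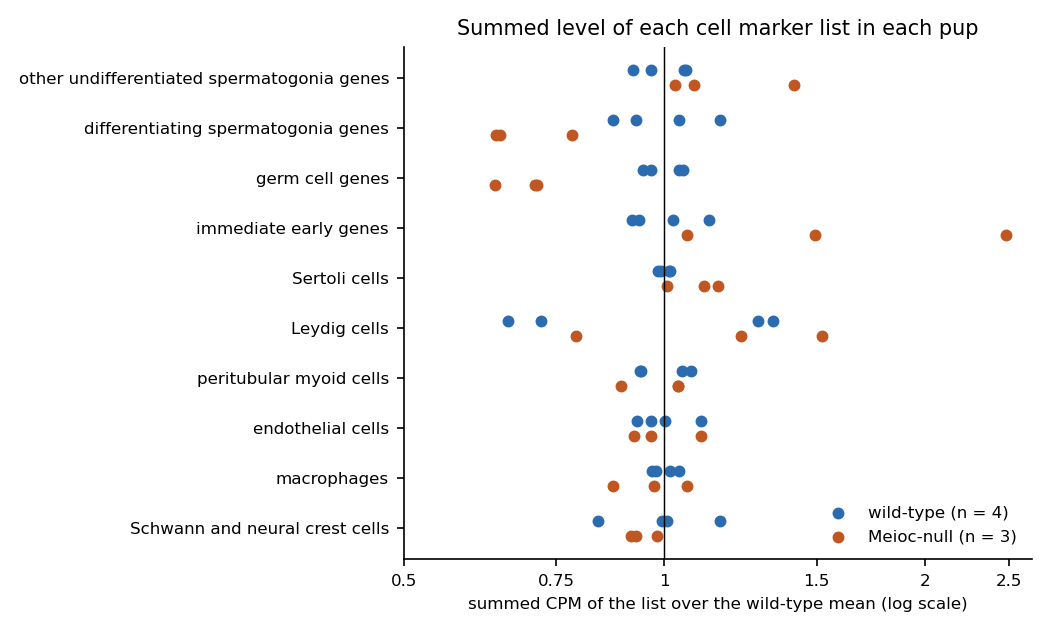
Summed CPM of each marker list in each library, divided by the wild-type mean of that list, on a log scale (wild-type in blue, n = 4; *Meioc*-null in orange, n = 3). The groups are apart for differentiating spermatogonia and germ cell genes, whose null libraries lie to the left. They overlap for the other 8 lists plotted. Abundant genes weigh most in a sum, such as *Taf4b* (undifferentiated genes), at 226 to 322 CPM in wild type. In wild type *Stra8* (differentiating genes) was at 126 to 411 CPM and *Clu* (Sertoli cells) at 3424 to 3673 CPM. Of the 13 tested undifferentiated genes, 12 had a negative log2 fold change. The lists of the GDNF pathway are not plotted.

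Among all tested genes, those whose log2(CPM + 1) followed *Gfra1* most closely over the 7 libraries were *Sesn1* (Pearson r = 0.984), *Lrrk2* (0.982) and a second gene annotated as *Hgs* (0.979). Those closest to *Etv5* were *Tacc2* (0.988), *Asb13* (0.987) and *Brd1* (0.984). These are descriptions over 7 libraries, which share their scaling, and 30 genes lay above 0.9 for *Gfra1* and 345 for *Etv5*. Among the 9 genes, *Ret*, *Etv5*, *Bcl6b* and *Egr4* had pairwise r between 0.824 and 0.909, while the r of *Gfra1* with *Ret* was 0.273.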

How the data were processed

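Bulk RNA-seq libraries came from testes enriched for preleptotene spermatocytes (4 wild-type pups, 3 *Meioc*-null pups), and sample titles gave genotype and replicate. The authors trimmed reads with cutadapt 1.8 and ran kallisto 0.44.0 with strand and sequence-bias correction on GENCODE Basic vM15 transcripts (mm10). The deposited files hold, per protein-coding transcript, an estimated count, not normalized between libraries, and a TPM that the authors renormalized over protein-coding transcripts. TPM is relative to a fixed total per library.

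Transcripts were matched to GENCODE vM21 genes (43020 of 43139; the other 119 held 0.247% to 0.282% of counts and were left out) and summed. Counts were rounded, scaled by TMM and tested with edgeR 4.0.16 (quasi-likelihood, no covariate, R 4.3.3), called at an adjusted p under 0.05. Standard errors come from the fold change and F statistic. Genes below the TPM filter were tested by two-sided exact permutation of CPM. The fits were tested on simulated data. The 9 genes, the lists and the motifs were chosen with earlier results of these data known. Named genes are the 9, *Gdnf*, *Meioc*, each called gene of a list or, where none was called, the one farthest from 0, and the 3 most correlated with *Gfra1* and *Etv5*; *Spry1*, *Dusp6*, *Sox9*, *Wt1* and *Clu* only illustrate a list, and the single genes of the Schwann cell list are not reported here. The alternatives were DESeq2 1.42.0, limma 3.58.1 on log2(TPM + 1) and log2(TPM + 0.1), RLE, library size alone, scaling to germ cell genes, other filters, each library left out and a replicate block. The labels link same-numbered pups of the groups by nothing but the number (see the last section for a check). No 2 libraries agreed within counting noise (smallest ratio 3.71), so all 7 were counted. Floors cover counting error only.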

Additional observations from a re-analysis of the deposited data

Results flagged for a closer look

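*Sdc3* was flagged because 1 wild-type library lay far from the others of its group. It was at 20.1 CPM in wild-type replicate 2 and at 15.9 to 16.4 CPM in the other 3 wild-type libraries, and the gap was 0.886 of the range of the group, above the critical value of Dixon's test for 4 samples. Values of 38 genes were examined in this way, and chance flags about 1 in 20 groups. The groups of 3 null libraries are too small for this test, so *Meioc*-null replicate 2 could not be examined by it.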

How the results depend on the processing

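Of the 6 tested genes, 3 were called lower in wild type by DESeq2 (with and without the TPM filter), 2 by library size alone and on log2(TPM + 1) and log2(TPM + 0.1), 1 with RLE scaling, with no filter and with edgeR's own filter, and 6 with scaling to germ cell genes, which themselves differ between the groups. With 1 library left out, 0 to 2 were called lower, and 0 were called higher under any setting. Over all genes, 875 (DESeq2), 764 (DESeq2, no filter), 904 (library size), 10182 (germ cell genes), 2082 and 2063 (log2(TPM + 1) and log2(TPM + 0.1)) were called lower; 250, 440 and 443 were called higher in the last 3 of these scalings. With 1 library left out, 113 to 1440 were called higher and 18 to 837 lower. Of the other undifferentiated genes, 11 were called lower with germ cell scaling and 1 to 7 with a library left out; 0 were called higher with germ cell scaling and on both TPM scales, and 0 to 1 with a library left out. The replicate block, which the labels do not call for, gave 94 calls higher and 15 lower over all genes. It gave 1 undifferentiated gene lower and 0 higher, and 0 of the 6 genes. Deviations from the group means had correlations of -0.0571, -0.104 and -0.231 between same-numbered pups. Between other pups of the 2 groups they ran from -0.093 to 0.204. With so few pups this check cannot decide whether same-numbered pups share more than a number.

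Signs turned for *Id4* (-0.39 with germ cell scaling, -0.10 and -0.11 on the TPM scales), *Mael* (-0.19 with germ cell scaling), *Star* (0.44 without *Meioc*-null replicate 3; -1.65 to 0.44 over all libraries left out), *Lrrk2* (0.0191 without wild-type replicate 2; -0.147 to 0.0191) and *Nanos2* (0.24 without *Meioc*-null replicate 2; -0.65 to 0.24 over all libraries left out). The causes were not tested. Depth limits *Lhx1*, *Eomes* and *Nanos2*, which had 0 to 22 estimated counts in a library.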
